A study of Mus musculus with 14 samples.

Results

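The genes described here, 10 in number, had strongly higher signal in E16.5 Coup-tfII knockout ovaries than in E16.5 controls: Cga, Hdc, Mgarp, Ly6d, Capn6, Fabp3, Fabp4, Crygb, Clca3a1 and Arhgef4. They were chosen by that difference in signal, so every value of theirs in the E16.5 comparison is a description and carries no test. Every probe set whose only gene symbol in the platform annotation was 1 of these 10 was taken, which gave 18 of the 45037 probe sets on the array other than controls, and 10 of 18193 genes. All 10 genes, each represented by its brightest probe set, were above the level required for testing (a mean signal of about 62.0), as were 12406 genes in all, while 4 of the 18 probe sets lay below it. The mean was taken over all arrays, so it included the E16.5 knockouts that chose the genes. Cga lay just above the level, at percentile 40.7 of the means of all probe sets. Its place among the genes tested may therefore depend on its E16.5 knockout signals, which was not tested.

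The study removed Coup-tfII, the nuclear receptor gene with the symbol Nr2f2, from fetal mouse ovaries with a tamoxifen-dependent recombinase, WT1-CreERT2, acting on COUP-TFII flox/flox alleles. Expression was measured on 14 Affymetrix arrays, 3 of controls and 3 of knockouts at E14.5 (counted in days of embryonic development) and 4 of each genotype at E16.5. Dams of all 4 groups received tamoxifen at E11.5 and E12.5 at 2 mg per 10 g of body weight, and all embryos were of a mixed background of C57BL/6, Swiss Webster and B6129SF1/J. The labels call the arrays biological replicates, but the sources used here do not give the alleles of the controls or say whether an array holds 1 embryo or a pool. Because the recombinase is made under WT1, a gene of the somatic gonad and the coelomic epithelium, cells without WT1 would keep Coup-tfII.

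COUP-TFII is a transcription factor of the nuclear receptor superfamily that binds repeats of the hexamer AGGTCA and can repress or activate nearby genes. In the fetal gonad it is known as a marker of interstitial, mesenchymal cells, which lie between the cords of germ cells and pre-granulosa cells. The 10 genes belong to no single pathway. Cga and Mgarp are tied to hormone production, Hdc to histamine, Fabp3 and Fabp4 to fatty acid transport, Capn6 and Arhgef4 to the cytoskeleton, and Ly6d, Crygb and Clca3a1 encode a surface protein, a lens structural protein and a regulator of chloride channels.

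The arrays were checked against their labels before the members were read. Nr2f2 has 6 probe sets. At E16.5 every knockout lay below every control on 5 of them, but at E14.5 on only 1, 1416160_at. The array labelled E14.5 control replicate 1 had the lowest signal of the 3 controls on all 6 probe sets, and on 5 of them it lay at or below the highest knockout. On probe set 1416159_at it read 19.3, against 349.7 and 207 in the other E14.5 controls and 34.6, 65.6 and 79.1 in the knockouts. It also stood apart in 2 array measures, with a difference between the 3' and 5' Gapdh control probe sets of -0.06 on the log2 scale against -0.42 to -0.29 on the other E14.5 arrays, and a dap spike-in signal of 1772 against 2829 to 3573. Whether its label is right was not tested, and results at E14.5 are therefore given with and without it. At E16.5, knockout replicates 1 and 4 stood out in the bioB spike-in, with mean signals of 10487 and 17021 where the remaining 6 gave 3956 to 5430.0. The same 2 arrays had the lowest Gapdh 3' to 5' differences of the stage, 0.94 and 1.32. This measure, a sign of RNA quality, did not overlap between the E16.5 groups, at 1.67 to 1.83 in controls and 0.94 to 1.63 in knockouts, and its part in the E16.5 differences was not tested. Without replicate 1 the genes called higher at E16.5 were 27 in place of 120, without replicate 2 they were 323, and without replicates 1 and 4 they were 10. Markers of the tissue were present on every array: the summed signal was 12639.8 or more for germ cells and 20638 or more for pre-granulosa cells, and the latter was lower in E16.5 knockouts (20638 to 22147) than in E16.5 controls (25567 to 26581).

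Cga encodes the alpha subunit shared by luteinizing hormone, follicle-stimulating hormone and thyroid-stimulating hormone. Its signal was 8.10, 3.19, 15.4 and 12.1 in the E16.5 controls and 126, 99.8, 66.9 and 58.1 in the E16.5 knockouts. All 4 controls were below the level required for testing, 1 knockout was also below it, and the groups did not overlap. The log2 change, computed on signal plus 16 as everywhere here, was 1.99 ± 0.26 (SE), the 5th largest increase among the 12406 genes. At E14.5 the signal was 140.5, 136 and 87.4 in controls and 157, 169 and 132 in knockouts. The E14.5 groups overlapped, all 6 arrays were well above the E16.5 controls, and the log2 change of 0.32 ± 0.30 did not pass (limma adjusted p = 0.818). The E16.5 difference lay between controls with little signal and knockouts at 87.8 ± 31.3 (SD, n = 4), against 121 ± 29.4 (SD, n = 3) in E14.5 controls. Plcb4, Mettl24 and Imp3 had the pattern most like that of Cga over the 14 arrays, each with a Pearson r of 0.94. For every member this r contains the E16.5 difference that chose it, so genes raised at E16.5 tend to rank high.

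The beta subunits that pair with Cga were at low signal or did not pass. Lhb and Fshb, the beta subunits of the gonadotropins, had E16.5 means of 20.4 and 4.60 in controls and 3.81 and 2.02 in knockouts. Both were below the level required for testing. Of 8 hormone and receptor genes listed, 2 were tested and 0 passed by limma at either stage (unadjusted p under 0.05 for 1 at E14.5 and 0 at E16.5), where 0.967% of all genes passed as higher at E16.5. At E14.5, 0.0403% of all genes passed as higher, so a count of 0 in this or a later list says little about its genes. Tshb, the thyrotropin beta subunit, had a log2 change of 0.47 ± 0.28 at E16.5 (limma adjusted p = 0.384), and Gpha2, an alpha subunit relative, 0.50 ± 0.29 (limma adjusted p = 0.385). At E14.5 Gpha2 had 1.02 ± 0.34 (limma adjusted p = 0.405), with all knockouts above all controls, and Tshb 0.64 ± 0.32 (limma adjusted p = 0.611). Of 10 pituitary markers, 7 were measured and 1 tested, Pomc, the precursor of corticotropin, at 0.54 ± 0.23 (limma adjusted p = 0.220). The summed signal of the pituitary list was 284 to 443 in E16.5 controls and 396 to 761 in E16.5 knockouts, and Prl, which encodes prolactin, had means of 5.62 and 3.84. The part of the pituitary list in the Cga signal was not tested.

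The promoter window of Cga is shown because it was the only member window that held a searched motif. RefSeq promoter windows (GRCm38.p6, 250 bases before to 50 after a start) were at hand for 8 of the 10 genes, in 9 windows. The letters searched on both strands were AGGTCA, the core of nuclear receptor elements, CAAGGTCA, which contains it and is bound by orphan receptors such as steroidogenic factor 1, a direct repeat of AGGTCA with 1 base of any kind between the copies, TGACGTCA, the cyclic AMP response element, and TATAAA, the TATA box. These were found in 16.3%, 1.56%, 0.0396%, 1.79% and 13.6% of 32851 promoter windows of the same length. The window of Cga, chr4:34893529-34893828 on the plus strand, has AGGTCA starting 207 bases before the start and TATAAA starting 30 bases before it, both on the strand of the gene and both in capitals. The window of Hdc, chr2:126618629-126618928 on the minus strand, is set beside it as that of the gene with the largest E14.5 change, and has none of the motifs.
Cga: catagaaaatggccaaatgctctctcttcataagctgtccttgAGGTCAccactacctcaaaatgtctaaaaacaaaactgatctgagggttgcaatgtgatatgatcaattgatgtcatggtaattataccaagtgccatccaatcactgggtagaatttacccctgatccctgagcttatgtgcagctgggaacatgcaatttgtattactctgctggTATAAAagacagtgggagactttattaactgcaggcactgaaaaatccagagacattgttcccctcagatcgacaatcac
Hdc: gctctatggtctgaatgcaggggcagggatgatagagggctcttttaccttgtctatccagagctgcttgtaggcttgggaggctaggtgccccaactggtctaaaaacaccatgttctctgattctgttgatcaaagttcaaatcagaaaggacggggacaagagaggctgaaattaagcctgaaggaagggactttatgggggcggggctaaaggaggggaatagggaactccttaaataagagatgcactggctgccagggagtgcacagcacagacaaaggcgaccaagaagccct
The matches describe letters in these windows and do not show that a factor binds there.

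Mgarp encodes a mitochondrial protein that is abundant in steroid-producing tissues and takes part in the transport of mitochondria. At E16.5 its signal was 87.5, 49.6, 43.6 and 29.0 in controls and 271, 105, 163 and 219.9 in knockouts, and every knockout lay above every control. The log2 change was 1.58 ± 0.29. The E14.5 signal was 220.3, 123 and 126 in controls and 253, 373 and 244 in knockouts, so the groups again did not overlap, with control replicate 1 close under the lowest knockout. The E14.5 log2 change of 0.85 ± 0.34 did not pass over all genes (limma adjusted p = 0.489). Crip2, Ppm1l and Mcam were most like Mgarp over the 14 arrays, with Pearson r of 0.96, 0.94 and 0.94.

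The marker lists were chosen with earlier results of these data known, so a count set beside the share of all genes is a description. Of 10 tested markers of steroidogenic cells and adrenal cortex, 3 rose at E16.5, beside 0.967% of all genes, and 7 did not pass. The 3 were Mc2r, the corticotropin receptor, which rose by 1.46 ± 0.23 (limma adjusted p = 0.00533), Hao2, a peroxisomal oxidase of the adrenal cortex, by 1.49 ± 0.27 (limma adjusted p = 0.0109), and Hsd3b1, a steroid dehydrogenase, by 1.57 ± 0.30 (limma adjusted p = 0.0160). Without E16.5 knockout replicate 1 only Mc2r of the 3 passed, and without replicates 1 and 4 none did. Over all alternatives the limma adjusted p ran from 0.00353 to 0.0874 for Mc2r, from 0.00171 to 0.0737 for Hao2 and from 5.0e-05 to 0.168 for Hsd3b1. At E14.5, 0 of the 10 passed by limma, with unadjusted p under 0.05 for 4. Star, the cholesterol transporter, had a log2 change of 0.25 ± 0.19, and Cyp11a1, the side-chain cleavage enzyme, of -0.59 ± 0.23. The summed signal of the 14 measured markers was 7511 to 9135 in E16.5 controls and 9834 to 13623 in E16.5 knockouts, without overlap, and its part in the Mgarp and Cga signals was not tested. In whole ovaries a change in the number of cells of a type cannot be told apart from a change in RNA per cell. Of the 9 genes listed for mitochondrial transport and fusion, all 9 were tested and 0 passed by limma at either stage (unadjusted p under 0.05 for 0 at E14.5 and 2 at E16.5). Among them, Kif5b, a kinesin motor, had a log2 change of -0.30 ± 0.11 at E16.5 and Dnm1l, the fission enzyme, of 0.13 ± 0.09.

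**Figure D1:**
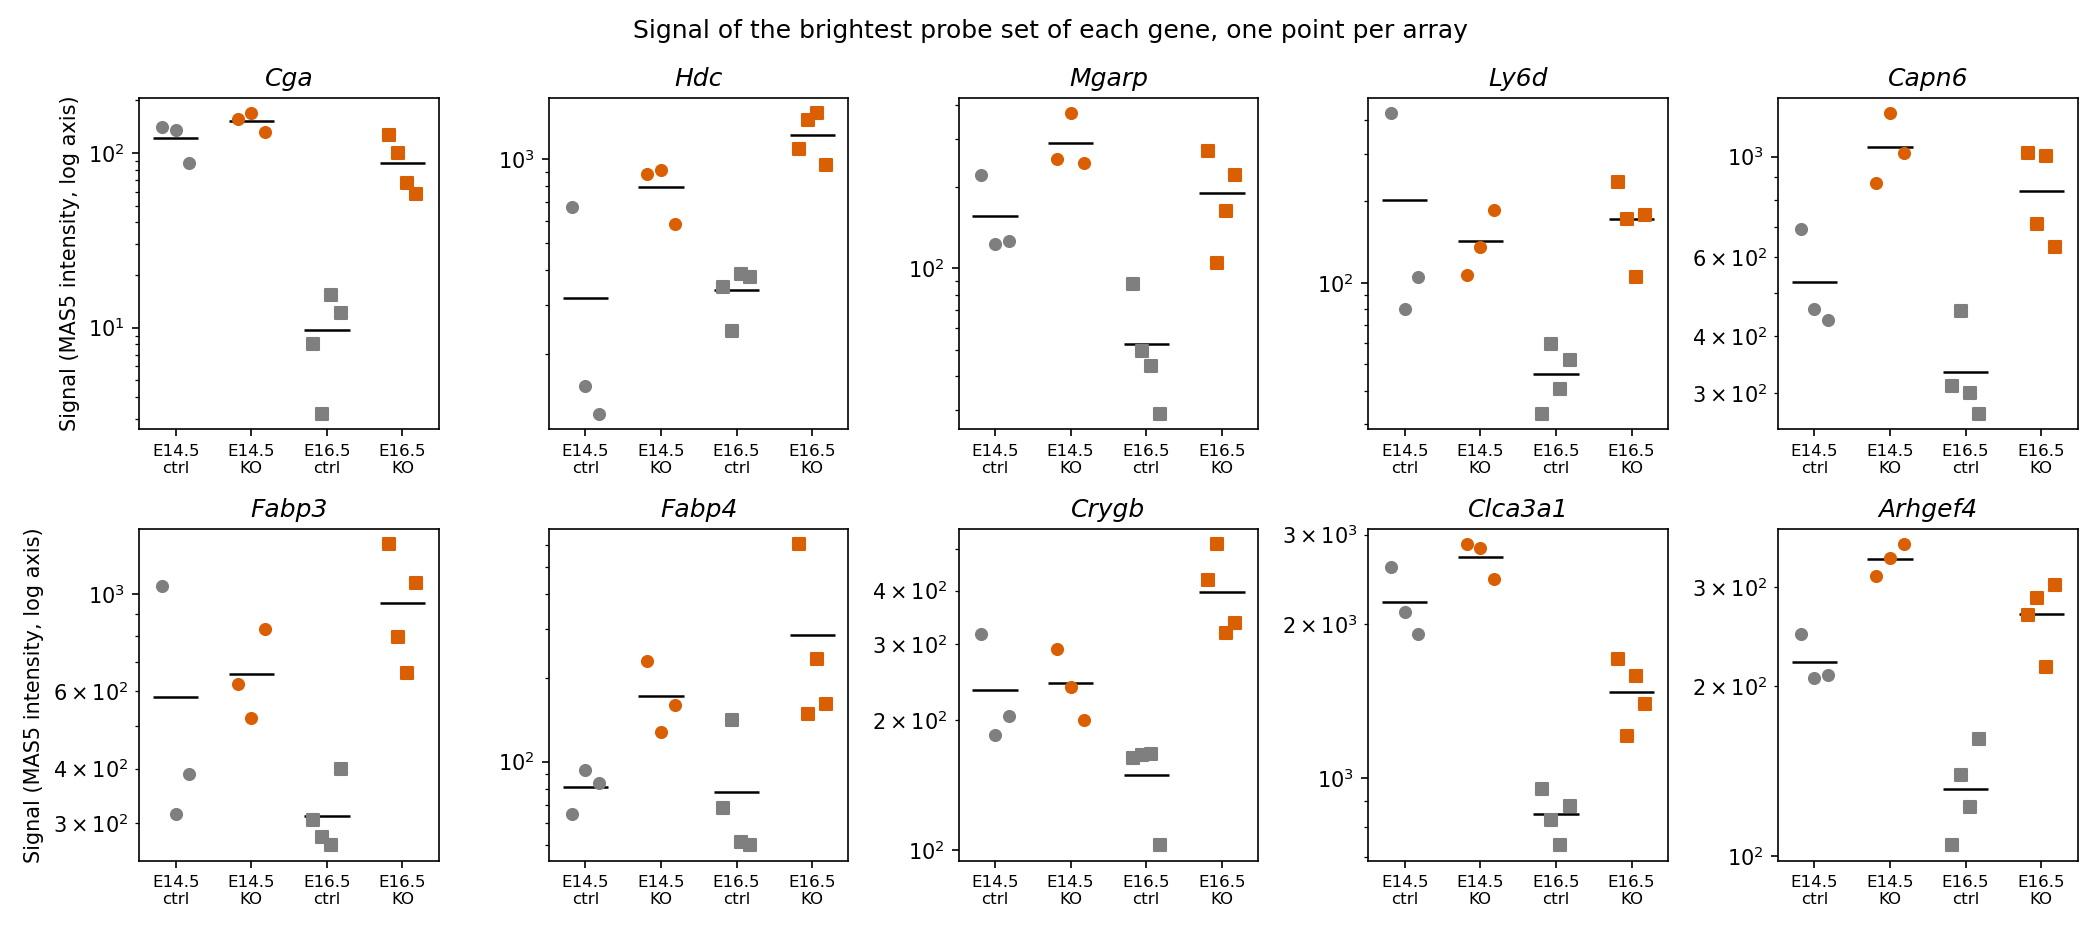
Signal of the brightest probe set of each gene on a log axis (MAS5 intensity), 1 panel per gene and 1 point per array, with controls in grey, knockouts in orange, circles for E14.5, squares for E16.5 and a black line at the mean of each group. At E16.5 the knockouts lie above the controls in all 10 panels, the contrast that chose the genes, whereas at E14.5 they do so in 4, and Cga has E16.5 control signals of 3.19 to 15.4.

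Hdc encodes histidine decarboxylase, the enzyme that makes histamine. Its brightest probe set, 1454713_s_at, read 349, 242, 387 and 377 in E16.5 controls and 1089.5, 1384, 1461 and 956 in E16.5 knockouts, a log2 change of 1.80 ± 0.35. Its E14.5 signals were 676, 155 and 122 in controls and 884, 915 and 585 in knockouts. The E14.5 knockouts lay far above 2 of the controls, while the array labelled control replicate 1 fell inside the range of the knockouts. The other probe set, 1451796_s_at, gave 274, 21.1 and 43.9 in E14.5 controls and 309.9, 366 and 219.9 in E14.5 knockouts, with the same control apart from the others.

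Hdc had the largest E14.5 log2 change of the 10 genes, 1.65 ± 0.41, which did not pass over all genes (limma adjusted p = 0.233). Without control replicate 1 the change was 2.37 ± 0.24 and passed (limma adjusted p = 0.000333 over the same 12406 genes), with the smallest p of all genes tested. Over the E14.5 alternatives its limma adjusted p ranged from 0.000333 to 0.704, and the fit without that array was the only 1 of 16 in which it passed. Both Hdc probe sets passed without that array in the fit over all probe sets, at 2.37 ± 0.24 and 2.71 ± 0.29 (limma adjusted p = 0.000632 for each). The 2 probe sets agreed over arrays, with a Pearson r of 0.87 between their deviations from the group means. This r includes the array labelled E14.5 control replicate 1, which stood apart on both probe sets, and r without it was not computed.

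Other genes of histamine handling did not pass. Of 8 measured, 3 were tested and 0 passed by limma at either stage (unadjusted p under 0.05 for 1 at E14.5 and 0 at E16.5). Slc18a2, the vesicular transporter that stores histamine in mast cells, had a log2 change of -0.28 ± 0.21 at E16.5 (limma adjusted p = 0.512), with means of 369.9 in controls and 304 in knockouts. Hnmt, which methylates histamine, had -0.04 ± 0.25, and Maob, a monoamine oxidase, -0.05 ± 0.23. The histamine receptors measured were all below the level required for testing.

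Mast cells and basophils are the best-known sources of Hdc. Of 11 of their markers, 3 were tested and 0 passed by limma at either stage (unadjusted p under 0.05 for 1 at each). Tpsb2, a tryptase, had a log2 change of 1.49 ± 0.37 at E16.5 (limma adjusted p = 0.0535), Cma1, a chymase, 0.76 ± 0.47 (limma adjusted p = 0.405), and Cpa3, a carboxypeptidase, 0.55 ± 0.63 (limma adjusted p = 0.679). Their summed signal was 694 to 1965 in E16.5 controls and 1496 to 3096 in E16.5 knockouts, with overlap. At E14.5 it was 138, 619 and 771 in controls and 349, 1231 and 234 in knockouts, with overlap. The E14.5 knockouts had the same order in this sum and in Hdc (884, 915 and 585), while among the E14.5 controls replicate 1 had the lowest sum and the highest Hdc signal, 676. With 3 arrays per group, nothing is read from these orders. Fcer1a and Ms4a2, chains of the high-affinity IgE receptor, had E16.5 knockout means of 10.02 and 31.4, and the part of mast cells in the Hdc signal was not tested. The genes with the pattern over 14 arrays most like that of Hdc were Eda2r, Acaa2 and Thbd, with Pearson r of 0.93, 0.93 and 0.92.

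Fabp3 and Fabp4 encode cytoplasmic carriers of fatty acids, the first named for heart and the second for adipocytes and also made by capillary endothelium and macrophages. Fabp3, by probe set 1416023_at, read 305, 279, 267 and 398 in E16.5 controls and 1297, 799, 661 and 1058 in E16.5 knockouts, a log2 change of 1.53 ± 0.29. The E14.5 readings were 1045, 314 and 388 in controls and 623, 521 and 832 in knockouts. There the array labelled control replicate 1 was the highest of all 6, the groups overlapped, and the log2 change of 0.35 ± 0.34 did not pass (limma adjusted p = 0.825). Without that array it was 0.86 ± 0.26 and still did not pass (limma adjusted p = 0.339). The dimmer Fabp3 probe set, 1444844_at, overlapped between the groups at both stages, with log2 changes of 0.52 ± 0.36 at E16.5 and -0.26 ± 0.42 at E14.5.

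Fabp4, by probe set 1451263_a_at, read 67.9, 141, 51.3 and 50.001 in E16.5 controls and 602, 148, 232 and 161 in E16.5 knockouts. The lowest knockout lay just above the highest control, and knockout replicate 1 lay far above the other 3. The log2 change was 1.56 ± 0.36, and 1.14 ± 0.30 without knockout replicate 1. In E14.5 arrays it read 65.01, 93.5 and 83.9 in controls and 230.0, 128 and 159.9 in knockouts, without overlap, and the log2 change of 0.94 ± 0.42 did not pass (limma adjusted p = 0.543). Fabp4 was the only member in which the array labelled E14.5 control replicate 1 was not the highest control.
The second bright Fabp4 probe set, 1417023_a_at, read 83.6, 122 and 102 in E14.5 controls and 198, 219 and 203 in E14.5 knockouts, and it too was without overlap at both stages. The 2 bright probe sets had a Pearson r of 0.87 between their deviations. The 2 remaining Fabp4 probe sets were dim, at 34.7 or below on every array, and 1424155_at was the only member probe set with a negative E16.5 change, -0.60 ± 0.30.

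Other lipid carriers did not pass. Of 12 measured, 5 were tested and 0 passed by limma at either stage (unadjusted p under 0.05 for 3 at E14.5 and 2 at E16.5). Fabp5, the epidermal form, had a log2 change of 0.10 ± 0.25 at E16.5, and Fabp7, the brain form, of -1.26 ± 0.31 (limma adjusted p = 0.0509), with all 4 knockouts below all controls. Of 13 tested genes of fatty acid uptake and handling, 0 passed by limma at either stage (unadjusted p under 0.05 for 2 at each), with Lpl, lipoprotein lipase, at -0.02 ± 0.13 and Plin2, a lipid droplet coat, at -0.16 ± 0.14 at E16.5. The 2 at E16.5 were Gpihbp1 at 0.72 ± 0.19 (limma adjusted p = 0.0662) and Slc27a1 at 0.39 ± 0.14 (limma adjusted p = 0.158), each higher without overlap. The 2 at E14.5 were Gpihbp1 at 0.53 ± 0.22, again without overlap, and Lpl at 0.38 ± 0.15. Of 7 measured adipocyte markers, 2 were tested, with Pparg at -0.31 ± 0.24 and Cebpa at 0.23 ± 0.32 at E16.5. Adipoq, which encodes adiponectin and was below the level required for testing, had E16.5 means of 17.3 in controls and 24.4 in knockouts. The adipocyte sum was 305 to 355 in E16.5 controls and 304 to 373 in E16.5 knockouts.

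The endothelial and macrophage lists were also chosen with earlier results of these data known. Of 11 tested markers of capillary endothelium, 2 rose at E16.5, beside 0.967% of all genes, 1 fell, beside 0.451%, and 8 did not pass. Plvap, a protein of endothelial fenestrae, rose by 1.18 ± 0.21 (limma adjusted p = 0.0111), Aqp1, a water channel, rose by 1.31 ± 0.31 (limma adjusted p = 0.0436), and Tek, the angiopoietin receptor, fell by 0.68 ± 0.15 (limma adjusted p = 0.0255). None of the 3 passed without E16.5 knockout replicate 1, and over all alternatives the limma adjusted p ran from 0.00936 to 0.228 for Plvap, from 0.0161 to 0.325 for Aqp1 and from 0.0127 to 0.217 for Tek. The summed signal was 4328 to 5391 in E16.5 controls and 5632 to 7144 in E16.5 knockouts. The macrophage sum, 3090.0 to 3868 and 3308 to 7581, overlapped, and 1 of 9 macrophage genes tested rose, beside 0.967% of all genes. It was C1qb, a complement subunit, by 0.82 ± 0.20 (limma adjusted p = 0.0480, from 0.0216 to 0.136 over the alternatives, and 0.120 without knockout replicate 1). Knockout replicate 1, the array with the highest Fabp4 signal, had the highest sum of the E16.5 knockouts for both lists, as for 7 of the 16 cell type lists in all, and the part of these lists in the Fabp4 signal was not tested. The 3 genes most like Fabp3 over the 14 arrays were Wfdc1, Kcnh1 and Plvap, with Pearson r of 0.91, 0.90 and 0.89. For Fabp4 these were Dpt, Ak5 and Upk1b at 0.86, 0.85 and 0.85. These r contain the E16.5 difference that chose Fabp3 and Fabp4, so the place of Plvap, itself raised at E16.5, is no sign of a cell source.

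Capn6 encodes a calpain without the catalytic cysteine, which binds microtubules and is known from embryonic muscle. By probe set 1450429_at it read 310.2, 456, 300.01 and 269 in E16.5 controls and 1018, 709, 1003 and 632 in E16.5 knockouts, a log2 change of 1.29 ± 0.20. E14.5 signals were 691, 459 and 434 in controls and 876, 1248 and 1017 in knockouts. All knockouts lay above all controls at both stages. The E14.5 log2 change of 0.98 ± 0.23 had the smallest unadjusted p of the 10 genes and did not pass over all genes (limma adjusted p = 0.215), and without control replicate 1 it was 1.19 ± 0.24 (limma adjusted p = 0.0644).

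The other Capn6 probe set, 1421952_at, read 107, 13.2 and 30.7 in E14.5 controls and 155, 147 and 125 in E14.5 knockouts, again without overlap. At E16.5 it read 372, 575, 442 and 368 in controls and 773, 864, 797 and 561 in knockouts, where the lowest knockout fell below the highest control. In the fit over all probe sets its E14.5 log2 change was 1.52 ± 0.35 (limma adjusted p = 0.173), and without control replicate 1 it was 2.10 ± 0.25 and passed (limma adjusted p = 0.00236). The probe sets moved in opposite directions between stages, since in controls 1421952_at was higher at E16.5 than at E14.5 by 3.02 on the log2 scale and 1450429_at was lower by 0.63. Their Pearson r over 14 arrays was 0.06, against 0.64 after the group means were taken out.

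Of 14 other genes of the calpain family, 9 were tested and 0 passed by limma at either stage (unadjusted p under 0.05 for 4 at E14.5 and 2 at E16.5), with Capns1, the small regulatory subunit, at 0.14 ± 0.10 and Capn7 at -0.09 ± 0.10 at E16.5. The 4 at E14.5 were Cast at 0.73 ± 0.14 (limma adjusted p = 0.102), Capn1 at 1.11 ± 0.26 (limma adjusted p = 0.205), Capn2 at 0.29 ± 0.11 and Capn7 at -0.28 ± 0.12. Capn1 was dim at E14.5, with means of 13.0 in controls and 46.0 in knockouts. An E14.5 change was therefore not particular to Capn6 in this family. Markers of heart and skeletal muscle, tissues in which Capn6 or Fabp3 is known, summed to 1338 to 2008 in E14.5 controls and 2771 to 5253 in E14.5 knockouts, without overlap. Their sum at E16.5 was 1199.6 to 4000.1 in controls and 1409 to 2622 in knockouts. The 9 tested markers had at E14.5 a median log2 change of 1.36, beside 0.03 for all genes, and at E16.5 one of 0.16, beside 0.05, and 0 passed by limma at either stage (unadjusted p under 0.05 for 7 at E14.5 and 1 at E16.5). The 7 were all higher at E14.5, where 5.45% of all genes were higher with an unadjusted limma p under 0.05. After adjustment 0.0403% of all genes passed as higher at that stage. Tnni1, slow troponin I, had a log2 change of 1.30 ± 0.45 at E14.5, and Myh8, perinatal myosin, of 0.94 ± 0.23. In the E14.5 knockouts the muscle sum was 4232, 2771 and 5253, beside Fabp3 at 623, 521 and 832 and Capn6 at 876, 1248 and 1017. Nothing is read from an order of 3 arrays. Control replicate 1 had the highest sum of the E14.5 controls, 2008, and the highest Fabp3 and Capn6 signals among them. The part of the muscle markers in the Capn6 and Fabp3 signals was not tested. The 3 genes most like Capn6 over 14 arrays were Vegfd, Efemp1 and Mfap3l, with Pearson r of 0.95, 0.95 and 0.94.

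Arhgef4 encodes a guanine nucleotide exchange factor for Rac and Cdc42 that is activated by the APC tumour suppressor. By probe set 1435033_at it read 104, 139, 122 and 161 in E16.5 controls and 268, 286, 216 and 302 in E16.5 knockouts, a log2 change of 0.95 ± 0.16. At the earlier stage it read 247, 206 and 209 in controls and 314, 337 and 357 in knockouts. The groups did not overlap at either stage, and the E14.5 log2 change of 0.57 ± 0.18 did not pass (limma adjusted p = 0.388). The other probe set, 1437656_at, was dim, at 82.6 or below, and overlapped at both stages. Dcxr, Zmat3 and Col9a1 were most like Arhgef4 over the arrays, with Pearson r of 0.94, 0.93 and 0.92.

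Ly6d encodes a small glycosylphosphatidylinositol-anchored surface protein, known as a marker of early B lymphocyte progenitors and of stratified epithelia. At E16.5 it read 32.7, 59.6, 40.4 and 51.7 in controls and 236, 172, 105 and 177 in knockouts, a log2 change of 1.57 ± 0.37. All 4 controls were below the level required for testing and all 4 knockouts above it. The E14.5 arrays gave 424, 80.1 and 105 in controls and 107, 136 and 186 in knockouts. The array labelled control replicate 1 was the highest of all 14, and the E14.5 log2 change was -0.15 ± 0.43 with it (limma adjusted p = 0.957) and 0.53 ± 0.32 without it (limma adjusted p = 0.801), so the direction depended on that array. None of the 8 measured B lineage markers reached the level required for testing, and their sum was 127 to 284 in E16.5 controls and 198 to 250.5 in E16.5 knockouts. The stratified epithelium sum was 515 to 819 in E16.5 controls and 827 to 1156 in E16.5 knockouts, and 672 to 976 and 1095 to 1236 at E14.5. It did not overlap at either stage, yet only Dsp, a desmosomal protein, was tested, at 0.63 ± 0.18 at E16.5 (limma adjusted p = 0.0944), and the part of this list in the Ly6d signal was not tested. Of 6 other tested genes of the Ly6 family, 0 passed by limma at either stage (unadjusted p under 0.05 for 1 at E14.5 and 2 at E16.5), with Ly6e at 0.61 ± 0.15 at E16.5 (limma adjusted p = 0.0509). Bst2, Col9a1 and Dtymk were most like Ly6d, with Pearson r of 0.91, 0.88 and 0.87.

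Surface epithelium, the coelomic cell layer that covers the ovary, is an epithelial source the samples would contain. Of its 7 markers, all tested and chosen with earlier results of these data known, 2 rose at E16.5, beside 0.967% of all genes. They were Krt19, a keratin, by 1.24 ± 0.25 (limma adjusted p = 0.0173), and Upk1b, a uroplakin, by 1.01 ± 0.24 (limma adjusted p = 0.0438). Without knockout replicate 1 neither passed, and over the alternatives the limma adjusted p ran from 0.00581 to 0.228 for Krt19 and from 0.0315 to 0.229 for Upk1b. The summed signal was 7911 to 8255 in controls and 10324 to 13434 in knockouts at E14.5, and 8750.3 to 10075 and 11053 to 15606 at E16.5, without overlap at either stage. Its part in the signals of the members was not tested.

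Crygb encodes gamma-B crystallin, a structural protein of the lens fibre. At E16.5 it read 163, 166, 166 and 102 in controls and 423, 512, 319.5 and 336 in knockouts, a log2 change of 1.32 ± 0.21. At E14.5 it read 316, 184 and 204 in controls and 293, 239 and 200.4 in knockouts. The E14.5 groups overlapped, and the log2 change of 0.07 ± 0.24 did not pass (limma adjusted p = 0.962). Of 16 measured genes of the lens list, 2 were tested, and 0 passed by limma at either stage (unadjusted p under 0.05 for 1 at each). Cryab, alpha-B crystallin and a small heat shock protein of many tissues, had a log2 change of 0.93 ± 0.24 at E16.5 (limma adjusted p = 0.0608), and Bfsp1, a lens filament protein, 0.02 ± 0.29. The summed lens signal was 721 to 878 in controls and 1151 to 1568 in knockouts at E14.5, without overlap, and 862 to 1391 and 1233 to 2349 at E16.5. Most of this sum was Cryab, with means of 409.5 and 876 at E14.5 and 626 and 1223 at E16.5, and no other measured gene of the list had a group mean above 107. The part of the lens list in the Crygb signal was not tested. Cryaa, the alpha crystallin of the lens, had E16.5 means of 8.17 in controls and 16.4 in knockouts, and Cryga, a neighbour of Crygb in the gamma cluster, of 40.3 and 58.1. Enpp3, Cdkn1a and Hao2 were most like Crygb, with Pearson r of 0.88, 0.85 and 0.83.

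Clca3a1 belongs to the CLCA family, secreted proteins that regulate calcium-activated chloride channels. By probe set 1417852_x_at it read 953, 828, 738 and 883 in E16.5 controls and 1708, 1208, 1588 and 1399 in E16.5 knockouts, a log2 change of 0.78 ± 0.13, the smallest of the 10. On E14.5 arrays it read 2588, 2119 and 1918 in controls and 2870.2, 2829 and 2449 in knockouts. The only overlap at E14.5 came from the array labelled control replicate 1, and the log2 change of 0.30 ± 0.15 did not pass (limma adjusted p = 0.604). The suffix of this probe set marks probes that may also bind related transcripts, so signal from the close paralog Clca3a2, whose own probe set had group means of 17.2 to 43.8, cannot be separated from it. The other probe set, 1417853_at, read 234, 207, 169 and 293 in E16.5 controls and 271, 276, 537 and 307 in E16.5 knockouts, with overlap. Ano1 and Ano6, calcium-activated chloride and ion channels, were tested and did not pass, at 0.24 ± 0.14 and -0.08 ± 0.10 at E16.5. Sik3, Abhd4 and Nr4a1 were most like Clca3a1, each with a Pearson r of 0.97.

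E14.5 arrays were not used to choose the genes, so E14.5 was the stage at which the 10 could be tested. The level required for testing did take in the E16.5 knockouts, and Cga, just above that level, may be among the 10 tested because of them. The log2 change was positive for 9 of them, where 55.3% of all genes were positive, with a median of 0.46 beside 0.03 for all genes. Mgarp, Capn6, Fabp4 and Arhgef4, 4 of 10, had all knockouts above all controls, as did 7.84% of all genes. Unadjusted limma p was under 0.05 and the change positive for 5 genes, the same 4 and Hdc, against 5.45% of all genes. After adjustment over the 12406 genes 0 of 10 passed, in a comparison in which 5 genes, or 0.0403%, passed as higher. Without E14.5 knockout replicate 3, the array with the highest muscle sum, 179 genes passed but again 0 members. By probe set, 6 of 18 were without overlap and higher, against 6.73% of all probe sets, and 0 of 18 passed after adjustment, against 0.0244%.

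Leaving out the array labelled E14.5 control replicate 1 changed these counts. It was the highest of the 3 controls for 9 of 10 members, and for 6 of them (Cga, Hdc, Ly6d, Fabp3, Crygb and Clca3a1) it reached or passed the lowest knockout. Without it all 10 log2 changes were positive, where 53% of genes were, with a median of 0.73 beside 0.02 for all genes. Leaving out the highest control had to raise the change of those 9 members, so the larger values and counts follow in part from which array was dropped. Unadjusted limma p was under 0.05 for 6 of 10, against 5.03% of all genes. Hdc alone passed over all genes, among 20 genes, or 0.161%, that passed as higher and 3 as lower. In the fit over all probe sets 3 of 18 passed, against 0.091%. Over the 14 to 16 alternatives per gene, 0 of the other 9 genes passed, with limma adjusted p from 0.0644 (Capn6 without that array) to 0.9997.

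**Figure D2:**
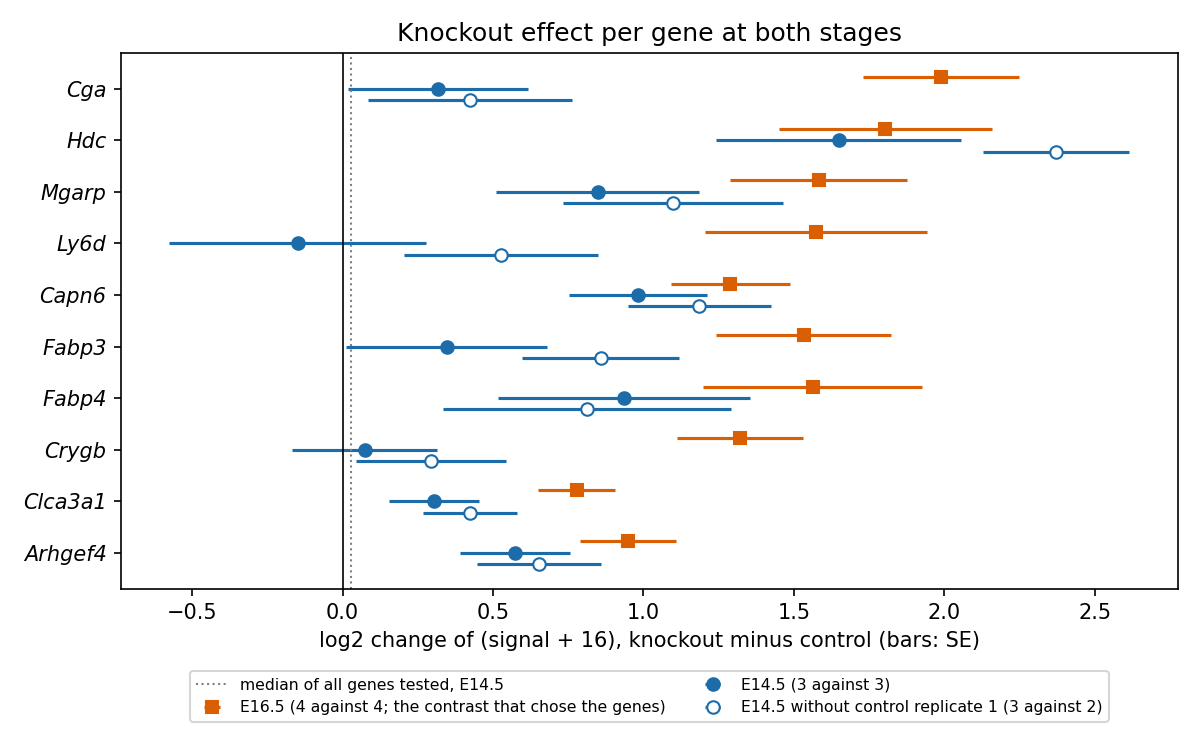
Log2 change of signal plus 16, knockout minus control, for each gene, with bars of 1 SE. Orange squares are E16.5 (the contrast that chose the genes), filled blue circles E14.5, and open blue circles E14.5 without control replicate 1, with a dotted line at the E14.5 median of all genes tested. Hdc moves from 1.65 to 2.37 and Ly6d from -0.15 to 0.53 when that array is left out, while Fabp4 falls from 0.94 to 0.81.

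The joint level of the 10 genes on each array was summarised as the median, over genes, of the log2 deviation from the mean of that gene over the 14 arrays. It was -0.79, -0.83, -1.03 and -1.01 in E16.5 controls and 0.87, 0.44, 0.25 and 0.45 in E16.5 knockouts. It was 0.51, -0.36 and -0.15 in E14.5 controls and 0.61, 0.66 and 0.65 in E14.5 knockouts. The first E14.5 control thus sat near the E14.5 knockouts, and E16.5 knockout replicate 1 was the highest array of all.

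**Figure D3:**
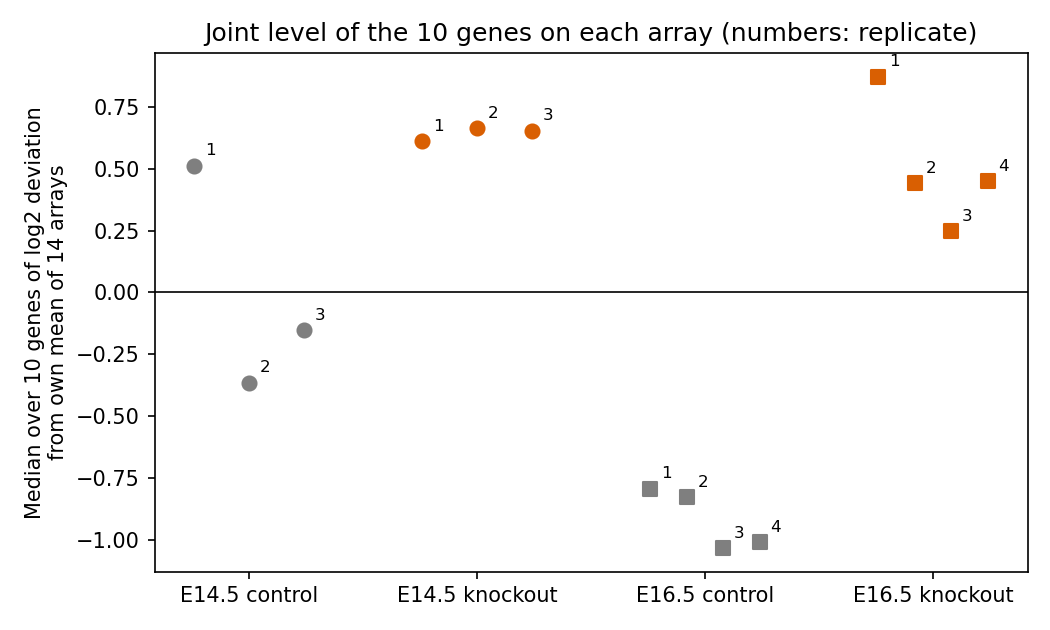
Median over the 10 genes of the log2 deviation from the mean of each gene over 14 arrays, 1 point per array, numbered by replicate, with controls in grey and knockouts in orange. E16.5 controls lie at -1.03 to -0.79 and E16.5 knockouts at 0.25 to 0.87, and the array labelled E14.5 control replicate 1 lies at 0.51, apart from the other E14.5 controls at -0.36 and -0.15.

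Between stages the controls and the knockouts differed in course. In controls 9 of 10 genes were lower at E16.5 than at E14.5, with a median log2 difference of -0.69 beside -0.09 for all genes. All E16.5 controls lay below all E14.5 controls for Cga, Mgarp, Ly6d, Crygb, Clca3a1 and Arhgef4, 6 of 10, as for 37.4% of all genes. These are the brightest probe sets. The dim Arhgef4 probe set 1437656_at went the other way without overlap, higher in E16.5 controls by 0.94 on the log2 scale, as did Capn6 1421952_at by 3.02. The most negative log2 differences were -2.42 for Cga and -1.49 for Ly6d. In knockouts the median was -0.04, with 3 genes lower without overlap (Cga, Clca3a1 and Arhgef4), as for 31.7% of all genes, and 2 higher (Hdc and Crygb), as for 24.8%. E16.5 knockouts overlapped with E14.5 controls for 6 genes, lay above them for Hdc, Fabp4 and Crygb, as for 29% of all genes, and lay below them for Clca3a1, as for 32.7%. These are descriptions, since low E16.5 controls helped choose the genes. The stages also differed in the Gapdh 3' to 5' difference, which was -0.42 to -0.06 on E14.5 arrays and 0.94 to 1.83 on E16.5 arrays, so stage and array set cannot be told apart.

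Over the 14 arrays the 10 genes were positively correlated in all 45 pairs, with Pearson r from 0.22 (Hdc and Clca3a1) to 0.92 (Cga and Clca3a1) and a median of 0.70. All pairs of the 12406 genes had a median of 0.02. The choice of genes fixes much of this, because each is high in the same 4 arrays and low in another 4. The same holds for the genes named as most like a member over the 14 arrays. Of these, 20 of 29 were called higher at E16.5, beside 0.967% of all genes.

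Deviations from the 4 group means do not contain the contrast that chose the genes. On these, 39 of 45 pairs were positive, with a median r of 0.30 beside 0.01 for all gene pairs and a range from -0.30 (Hdc and Fabp4) to 0.90 (Ly6d and Fabp3). By an exact permutation test within groups (two-sided, 20736 arrangements), 4 pairs had an unadjusted p under 0.05 and 0 of 45 passed after Benjamini-Hochberg adjustment, by Pearson or by Spearman correlation. For Ly6d and Fabp3 the exact permutation p was 0.00521 and the adjusted p 0.117, with a Spearman correlation of 0.85 (p = 0.00656, adjusted p = 0.148), and r was 0.75 without the 2 arrays farthest from the median. For Ly6d and Arhgef4 r was 0.65 (exact permutation p = 0.00429, adjusted p = 0.117) and the Spearman correlation 0.76 (p = 0.00477, adjusted p = 0.148), with r of 0.71 without the 2 farthest arrays. The others were Mgarp with Clca3a1 at r = 0.70 and Fabp3 with Arhgef4 at r = 0.57. The median r of the 45 pairs fell to 0.09 without the array labelled E14.5 control replicate 1, and it was at most 0.39 without any other array. Arhgef4, with a median r of -0.04 to the other 9, and Fabp4, with 0.09, followed the rest least. For each member the 3 genes most like it in these deviations had Pearson r of 0.84 to 0.95, and 1 gene, Rilp, was among the 3 for both Ly6d (0.86) and Fabp3 (0.90).

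**Figure D4:**
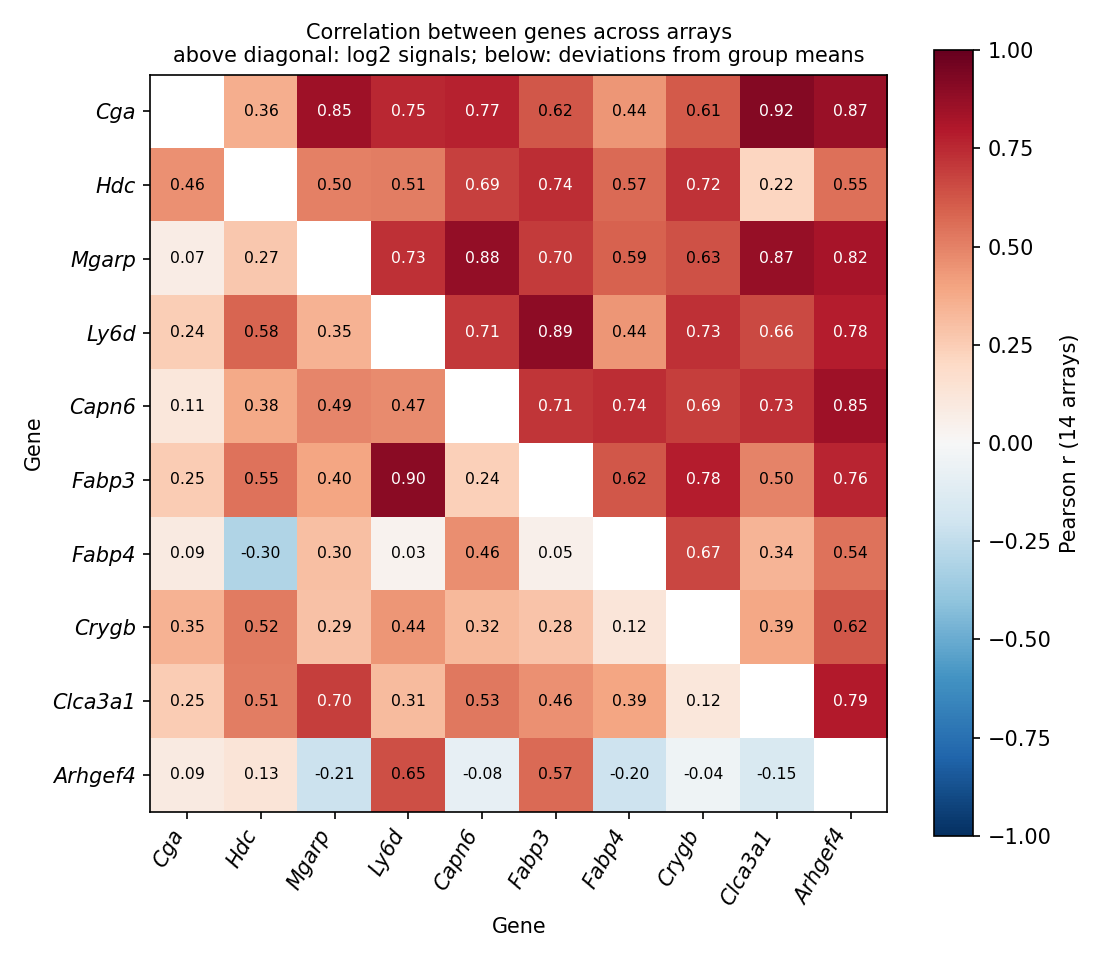
Pearson r between each pair of the 10 genes over 14 arrays, from log2 signals above the diagonal and from deviations from group means below it, on a colour scale from -1 (blue) to 1 (red). All 45 values above the diagonal are positive, whereas those below run from -0.30 to 0.90 with a median of 0.30, and the darkest cell there is that of Ly6d and Fabp3.

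Among the 12406 genes the members stood at ranks 5, 7, 10, 12, 14, 15, 33, 38, 102 and 186 by E16.5 log2 change, so many genes of similar change are not among them. Clca3a1, the member with the smallest change, lay at 0.78 between Pard6b, also at 0.78, and Vcam1, at 0.78. All 10 had every E16.5 knockout above every E16.5 control, as did 6.22% of all genes, from which nothing is read because that contrast chose them. Without E16.5 knockout replicates 1 and 4, the arrays with high spike-in signal, the log2 changes ran from 0.70 for Clca3a1 to 2.04 for Hdc. Their positive sign was fixed in advance, because every knockout lay above every control, and it says nothing about the effect of these arrays.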

How the data were processed

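The authors deposited linear intensity values per probe set. The submitters' processing notes name Affymetrix Expression Console and MAS5, without versions. The median signal was 90.3 to 103 on E14.5 arrays and 118 to 137 on E16.5 arrays, and no further scaling was applied. Intensities were taken as log2(signal + 16), which understates changes of dim genes. Each gene was represented by the probe set with the highest mean, and the genes tested had means over the 40th percentile of the means of all probe sets. Probe sets with several symbols (932) or none (9160) were not named. limma 3.58.1 in R 4.3.3 (lmFit, then eBayes with its trend option) fitted 1 model of the 4 groups over the 14 arrays, two-sided, with Benjamini-Hochberg adjustment over all genes and a threshold of 0.05. The same model over all 45037 probe sets covered every member probe set. The members and gene lists were chosen with earlier results of these data known. Named are all members, up to 4 genes past the threshold per list or up to 2 of the brightest where none passed, and the 3 tested genes with the highest r to each member. Other list genes were named after their values were seen. A gene list is not reported here. The fits and correlations were tested on simulated data. Correlations used Python 3.11.15 with numpy 2.4.6 and scipy 1.17.1, and figures matplotlib 3.10.9. Alternatives changed the pseudocount (1 or 64), scaling, filter, probe set choice, trend, arrays fitted and replicate block. The number of arrays limits the precision, and p-values measure the spread between these arrays.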

Additional observations from a re-analysis of the deposited data

Results flagged for a closer look

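Dixon's test was applied to each E16.5 group of each member probe set, 36 groups in all. It marked 3 groups with 1 array far from the others, and chance alone marks about 1 in 20. Fabp4 probe set 1417023_a_at read 306 in E16.5 knockout replicate 1, with the other knockouts between 104 and 114. Crygb read 102 in E16.5 control replicate 4, with the other controls between 163 and 166. Clca3a1 probe set 1417853_at read 537 in E16.5 knockout replicate 3, with the other knockouts between 271 and 307. E14.5 groups of 3 arrays were not examined in this way.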

How the results depend on the processing

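The number of genes called at E14.5, 5 as reported, was 0 with a pseudocount of 64, quantile normalization, median centring, the 60th percentile filter, no trend, or E14.5 arrays alone, and 9 (8 higher) with no filter. Leaving out 1 E14.5 array gave 0 to 179 (0 to 106 higher), with 179 without knockout replicate 3 and 23 without control replicate 1. Under these, 0 to 1 members and 0 to 3 member probe sets passed, and the median member change was 0.37 to 0.73. It was 0.32 with the mean of all probe sets. At E16.5, 176 genes (120 higher) were called, 276 with quantile normalization, 43 to 494 (27 to 323 higher) leaving out 1 array, lowest without knockout replicate 1 and highest without replicate 2, and 16 (10 higher) without knockout replicates 1 and 4. The median member change at E16.5 was 1.10 with a pseudocount of 64, and for Cga the change ran from 1.02 with a pseudocount of 64 to 3.16 with 1. Leaving out 1 array gave 0 to 1 correlated pairs, with 1 without E16.5 knockout replicate 1. Leaving out 1 array, the E14.5 change of Ly6d ran from -0.57 (without control replicate 2) to 0.53 (without control replicate 1), and was 0.02 without knockout replicate 1. That of Crygb ran from -0.071 (without control replicate 2) to 0.29 (without control replicate 1), and was -0.003 without control replicate 3 and -0.06 without knockout replicate 1. Same-numbered arrays did not deviate together in every pair (r from -0.05 to 0.43), so the numbers were not taken as pairs. With the replicate block, 9 genes were called at E14.5 (9 higher, 0 members) and 293 at E16.5 (190 higher). The causes were not tested. The 60th percentile filter left 6 members and the mean of all probe sets 9. Low signal limits Cga and Ly6d, whose E16.5 controls were all under the level required for testing.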
